A study of Homo sapiens with 2 samples.

Results

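DNA repair and damage checkpoint genes were examined on 2 arrays, of untreated H2228 cells and of H2228 cells given IL4. The 38 genes take in homologous recombination, the Fanconi pathway, mismatch repair, end joining and the checkpoint kinases. They were chosen by name, with earlier results of these data known. A value was taken from probe sets annotated to a single gene, and where a gene had several, the brightest one on average was used. Values were obtained for 34 of the 38 genes, out of 19775 genes measured. BRCA2, FANCA, FANCD2 and RBBP8 were not analysed here. The line H2228 came from a lung adenocarcinoma and carries EML4-ALK variant 3, a fusion kinase, and IL4 is a cytokine that signals through JAK kinases and STAT6. The untreated group is 1 array of H2228 cells, and the IL4 group is 1 array of the same line, for which the series description gives 100 ng/mL for 30 min. The labels of both arrays also mention transfections of 48 h, and whether these cells had been transfected is not stated. Both groups share the line and its fusion, so nothing here separates an effect of IL4 in cells with EML4-ALK from one in cells without it. With 1 array per condition there were no replicates and no test, and each difference below lies between 2 arrays.

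Cells repair breaks through both strands of DNA either by joining the ends directly or by homologous recombination, in which the ends are cut back to single strands and the sequence is copied from the sister chromatid. The Fanconi pathway removes crosslinks between the strands and hands the resulting breaks to recombination, while mismatch repair removes copying errors. ATM and ATR are kinases that sense breaks and stalled replication, and act through CHEK2 and CHEK1 to hold the cell cycle. Many recombination genes are transcribed at the entry into S phase under E2F factors, so that their mRNA follows the share of cycling cells in a culture.

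Promoter stretches of 4 of the genes, picked after their values were seen, are shown for the E2F-like motif that each holds, 3 from genes that were lower with IL4 and 1 from a gene that was not. This choice does not mirror all 10 measured genes found to hold a match, of which 4 were at least 1.5-fold lower and 6 were not. Each is the 250 bases before the annotated start in RefSeq (GRCh38.p14), 5′ to 3′ on the strand of the gene, with matches to TTCCCGC or TTGGCGC on either strand in capitals. RAD51AP1 lies on the plus strand at chr12:4538640-4538889, BLM on the plus strand at chr15:90717096-90717345, TOPBP1 on the minus strand at chr3:133661942-133662191 and PARP1 on the minus strand at chr1:226408094-226408343.
RAD51AP1: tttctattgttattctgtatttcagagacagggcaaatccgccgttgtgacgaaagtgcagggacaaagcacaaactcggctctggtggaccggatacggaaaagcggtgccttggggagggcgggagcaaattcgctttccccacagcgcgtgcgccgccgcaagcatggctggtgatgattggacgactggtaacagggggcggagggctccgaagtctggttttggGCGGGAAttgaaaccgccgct
BLM: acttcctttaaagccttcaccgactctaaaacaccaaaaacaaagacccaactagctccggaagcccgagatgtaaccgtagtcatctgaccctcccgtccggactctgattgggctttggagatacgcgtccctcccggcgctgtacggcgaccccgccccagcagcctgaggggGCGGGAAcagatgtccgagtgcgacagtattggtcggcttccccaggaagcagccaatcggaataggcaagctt
TOPBP1: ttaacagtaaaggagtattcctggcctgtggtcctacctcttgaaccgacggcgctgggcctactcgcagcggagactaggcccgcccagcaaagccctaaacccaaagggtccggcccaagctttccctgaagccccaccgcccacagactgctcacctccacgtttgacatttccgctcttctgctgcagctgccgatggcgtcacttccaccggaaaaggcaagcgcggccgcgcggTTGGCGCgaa
PARP1: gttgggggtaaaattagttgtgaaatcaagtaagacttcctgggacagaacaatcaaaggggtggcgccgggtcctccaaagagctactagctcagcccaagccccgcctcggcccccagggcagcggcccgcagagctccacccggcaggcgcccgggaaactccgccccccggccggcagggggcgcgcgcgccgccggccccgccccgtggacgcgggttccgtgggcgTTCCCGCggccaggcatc
The match begins 21 bases before the start in RAD51AP1, 74 bases in BLM, 10 bases in TOPBP1 and 18 bases in PARP1. The values of these genes differed. RAD51AP1, BLM and TOPBP1 were at least 1.5-fold lower with IL4, whereas PARP1, which holds a match as well, was at 10.36 in untreated cells and 10.40 with IL4.

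Lower values with IL4 prevailed among the DNA repair and checkpoint genes. Of the 34 genes, 13 were at least 1.5-fold lower with IL4 and 0 were at least 1.5-fold higher. Over all 19775 genes, 4.39% were at least 1.5-fold lower and 3.21% at least 1.5-fold higher, so that the share of 38.2% lower among the repair genes lay above the background. The median log2 difference, IL4 minus untreated, was -0.49 for the repair genes and 0 for all genes. The 34 differences ran from -1.37 for RAD54B to 0.039 for PARP1, 30 of them were below 0, 2 were above 0 and 2 were exactly 0. On probe sets specific to 1 transcript, which 29 of the genes have, 7 were at least 1.5-fold lower and the median was -0.30. Both 1.5-fold, a log2 difference of 0.58, and 2-fold are levels that the study names. At 2-fold, 2 repair genes were lower, RAD54B and RAD51AP1, against 0.89% of all genes.

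**Figure D1:**
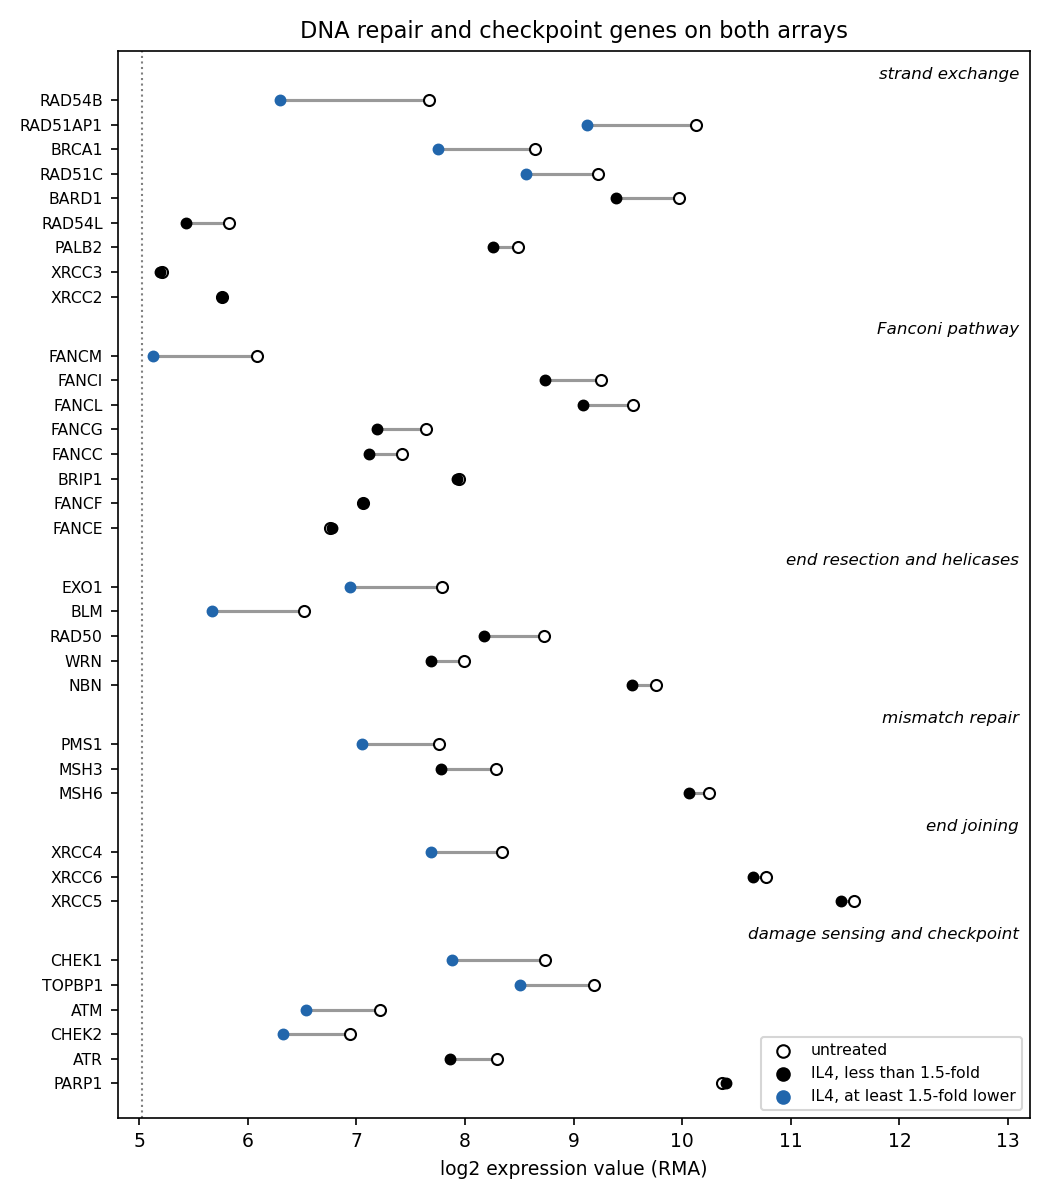
Log2 expression value (x axis) of the 34 DNA repair and checkpoint genes (rows, grouped by role), open circles for the untreated array and filled circles for the IL4 array (blue where at least 1.5-fold lower), 1 array each; the dotted line is the median of all probe sets, 5.03. Values are to be compared within a gene only; the widest gap is that of RAD54B, from 7.66 to 6.30, while both values of PARP1 lie near 10.4.

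All 34 genes reached, as a mean of the 2 arrays, the median probe set level, which was 5.03 on the log2 scale. Since the share of genes past 1.5-fold varies with the level, the repair genes were set beside all other genes of the same level. Of 12915 other genes at or above that median, 5.8% were at least 1.5-fold lower and 4.35% at least 1.5-fold higher, and 53% had a difference below 0, against 88.2% of the repair genes. Between 6 and 7 on the log2 scale, 4 of 5 repair genes were at least 1.5-fold lower and 6.82% of 2610 other genes were. From 8 to 9, the counts were 5 of 10 repair genes and 6.27% of 2041 other genes, with medians of -0.60 and -0.060. The shares were smaller in the other classes below 10. There, 1 of 4 repair genes was lower from 5.03 to 6, 2 of 7 from 7 to 8 and 1 of 4 from 9 to 10. Of the other genes in these classes, 3.86%, 8.17% and 6.06% were. At 10 or above the groups lay close together, with 0 of 4 repair genes and 2.93% of 1329 other genes at least 1.5-fold lower and medians of -0.12 and -0.070. The brightest repair genes, XRCC5, XRCC6, PARP1 and MSH6, are those 4. Over the 34 genes, the log2 difference had a Spearman correlation of 0.10 with the mean level, as a description of points that share both arrays.

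The widest differences of single genes, those of RAD54B and RAD51AP1, were found in strand exchange. The proteins of this step act at the cut-back end in the search for the matching sequence, and 4 of the 9 measured were at least 1.5-fold lower, with a median log2 difference of -0.58. RAD54B, a motor protein that helps to open the partner DNA, had a log2 value of 7.66 in untreated cells and 6.30 with IL4 and was 2.58-fold lower. RAD51AP1, which stabilizes the joint between the partner DNAs, was at 10.13 and 9.12, 2.01-fold lower. Of the other genes within 0.5 of their mean level, 0.439% had a lower difference than RAD54B and 0.891% a lower one than RAD51AP1. RAD54L, the relative of RAD54B, was at 5.83 and 5.43, a log2 difference of -0.40.

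BRCA1 and BARD1 form a ubiquitin ligase that promotes end cutting and recombination. BRCA1 was at 8.64 in untreated cells and 7.75 with IL4, 1.86-fold lower. BARD1 was at 9.97 and 9.39, and its log2 difference of -0.58 fell just short of the 1.5-fold level, which its 2 further probe sets passed with -0.61 and -0.68. PALB2, which links BRCA1 to BRCA2, had a log2 difference of -0.22. Of the related genes RAD51C, XRCC2 and XRCC3, RAD51C was at 9.23 and 8.56, 1.58-fold lower. Its further probe set had a log2 difference of -0.55, short of the 1.5-fold level. XRCC2 had the same value, 5.76, on both arrays, and XRCC3 was at 5.21 and 5.19. XRCC2 and XRCC3 were among the dimmest of the 34 genes, whereas RAD51C was well above the median level.

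In the Fanconi pathway, 1 of 8 measured genes was at least 1.5-fold lower, and the median log2 difference was -0.38. FANCM, the motor protein that anchors the core complex at a stalled fork, was at 6.08 in untreated cells and 5.13 with IL4, 1.94-fold lower. Its 3 further probe sets, all dimmer than the median, had log2 differences of -0.83, -0.49 and -0.14. FANCL, the ubiquitin ligase subunit, was at 9.55 and 9.09, a log2 difference of -0.46. FANCI, the partner that is ubiquitinated with FANCD2, was at 9.25 and 8.74, a log2 difference of -0.51, and its further probe sets had -0.54 and -0.28. The core complex genes FANCG and FANCC had differences of -0.45 and -0.30, while FANCE and FANCF, adaptors of the same complex, had 0.020 and 0. BRIP1, a helicase that binds BRCA1, was at 7.95 and 7.92. Within the core complex the differences therefore ranged from 0.020 for FANCE to -0.96 for FANCM. On probe sets specific to 1 transcript the median of the 8 genes was -0.082, and FANCC, read there by a dim probe set, had 0.21.

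Of 5 genes of end resection and helicases, 2 were at least 1.5-fold lower. EXO1, the nuclease that cuts back long stretches at breaks and mismatches, was at 7.79 in untreated cells and 6.94 with IL4, 1.79-fold lower. BLM, the helicase that unwinds recombination intermediates and is mutated in Bloom syndrome, was at 6.51 and 5.67, 1.79-fold lower. WRN, the helicase of Werner syndrome, had a smaller log2 difference of -0.30. RAD50 and NBN belong to the complex that first binds a broken end. RAD50 was at 8.73 and 8.17, a log2 difference of -0.56, and NBN was at 9.76 and 9.53, a difference of -0.23. MRE11, the nuclease of that complex and not among the 38 genes, was at 8.75 and 7.98, a log2 difference of -0.77, whereas the mean of its probe sets gave -0.42.

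Among 3 genes of mismatch repair, the log2 differences were -0.72 for PMS1, -0.51 for MSH3 and -0.18 for MSH6. MSH6 and MSH3 each recognise mismatches together with a common partner. MSH6 was at 10.24 in untreated cells and 10.06 with IL4, and MSH3 was at 8.29 and 7.78. PMS1 was at 7.76 and 7.05, 1.64-fold lower, but its second probe set above the median level had the same value of 5.31 on both arrays, so its call rests on 1 probe set.

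End joining was split between its genes. XRCC5 and XRCC6 encode the Ku proteins that cap broken ends, and had log2 differences of -0.11 and -0.12. XRCC5 was at 11.58 and 11.46, the highest level of the 34 genes. XRCC4, the scaffold of the ligation step, was at 8.34 and 7.68, 1.57-fold lower, and its further probe sets at or above the median level had log2 differences of -0.74 and -0.78. A dim probe set, the only one of XRCC4 specific to 1 transcript, had -0.27, short of the level.

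Damage sensing and checkpoint genes were at least 1.5-fold lower in 4 of 6 cases, with a median log2 difference of -0.65. CHEK1, the kinase activated by ATR, was at 8.74 in untreated cells and 7.88 with IL4, 1.81-fold lower, and its 3 further probe sets had log2 differences of -0.71, -0.80 and -0.40. TOPBP1, the protein that switches on ATR, was at 9.19 and 8.50, 1.61-fold lower. ATR itself was at 8.29 and 7.86, a log2 difference of -0.43 that stayed short of 1.5-fold.

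ATM was at 7.21 in untreated cells and 6.54 with IL4, 1.60-fold lower. Its 6 probe sets disagreed, and 2 of them were higher with IL4, at 0.15 and 0.06, so that the mean of all 6 was -0.21 and the call was lost. The one at 0.06 was dim, with a mean level of 1.80. Only 3 of the 6 reached the median level, with -0.67, -0.46 and 0.15. The median of these, -0.46, was short of 1.5-fold as well. CHEK2, the kinase activated by ATM, was at 6.94 and 6.32, 1.54-fold lower, on 1 probe set. PARP1, which detects breaks in a single strand, was the highest of the 34 differences at 0.039. On the brightest probe sets both kinase branches thus held lower values, from -0.43 for ATR to -0.85 for CHEK1. For ATM this did not hold on every probe set, and PARP1 had nearly the same value on both arrays.

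Further probe sets gave a second reading of the same RNA. The 34 genes had 78 probe sets, of which 59 reached the median level. Of these 59, 52 had a difference below 0 (88.1%), against 51.7% of 23198 probe sets of other genes at that level. For 16 genes a further probe set at that level was available, and 22 of these 25 further probe sets were below 0. The exceptions were probe sets of PMS1, ATM and FANCF. The 19 dim probe sets were split, with 10 below 0. Between the 2 brightest probe sets of a gene, the log2 differences had a standard deviation of 0.25 over 6056 genes, a spread that comes from reading the same RNA through other probes and says nothing of other cultures. Apart from RAD54B and RAD51AP1, neighbours in the order of the 34 differences lay closer together than this.

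The deposited values hold exact ties. Of 54675 probe sets, 4528 (8.28%) had the same value on both arrays, among them 13.4% of the probe sets below the median level and 0.432% of those at 8 or above. XRCC2 and FANCF are such genes, and 5 of the 78 probe sets of the repair genes are ties. A difference of 0 for these genes is thus no closer a measurement than its neighbours.

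**Figure D2:**
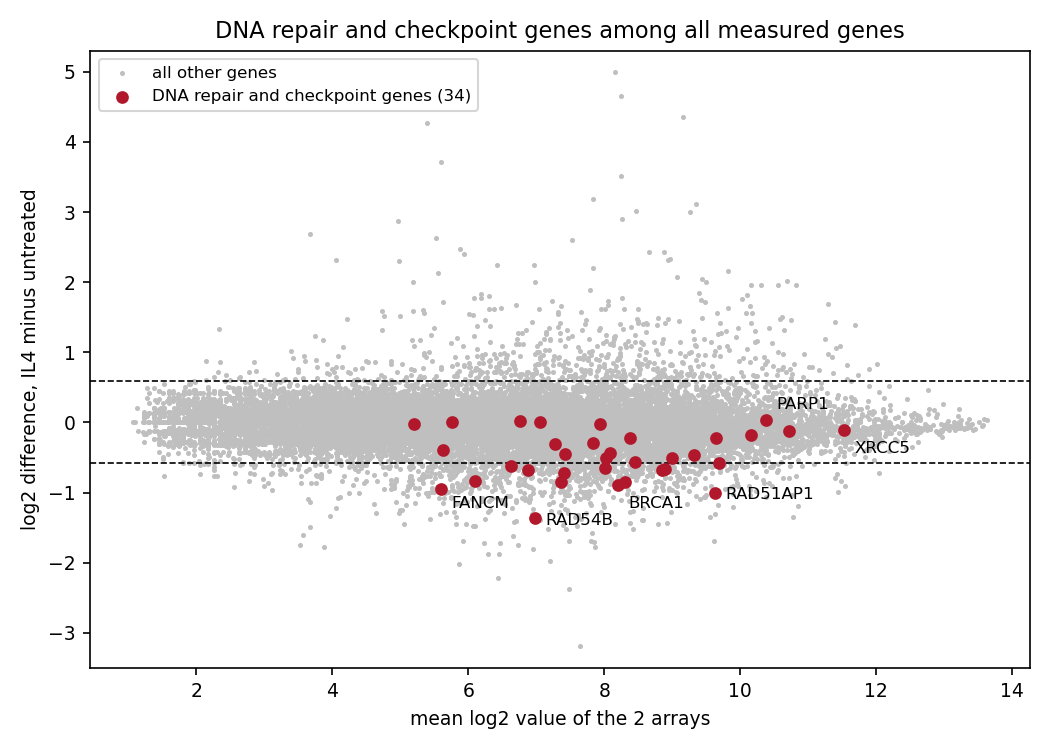
Log2 difference between IL4-treated and untreated cells (y axis) against the mean log2 value (x axis) of each gene, with the 34 DNA repair and checkpoint genes in red, all other genes in grey and dashed lines at 1.5-fold. The red points lie between -1.37 and 0.039, and none lies above the upper dashed line.

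Genes listed as having mRNA that peaks at the entry into S phase were set beside the remaining ones. BRCA1, BARD1, BRIP1, RAD51AP1, RAD54L, FANCI, BLM, EXO1, MSH6 and CHEK1 are the 10 measured genes on this list. Of them, 5 were at least 1.5-fold lower, with a median log2 difference of -0.71. The other 24 genes held 8 that were at least 1.5-fold lower, with a median of -0.44, and included RAD54B, FANCM, XRCC4 and ATM. They are only the genes not on the list, and whether some of them also peak at S phase entry was not examined. Under other choices of probe sets, FANCM, PMS1, XRCC4 and ATM, all among the 8 lower genes not listed, lost their calls. None of the 5 lower genes on the list did, but RAD51AP1, BLM and EXO1 have 1 probe set each. With the mean over probe sets the medians were -0.66 for the listed genes and -0.27 for the others. On probe sets specific to 1 transcript they were -0.58 and -0.24. Lower values were thus found on both sides of this division, and no test of the difference between them was possible with 1 array per condition.

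The remaining genes of DNA repair were lower in smaller part. Of 136 measured genes outside the 38, 28 (20.6%) were at least 1.5-fold lower and 0 were higher, with a median log2 difference of -0.24. In homologous recombination, 10 of 36 were lower, led by DNA2, a nuclease of end resection at 7.32 and 6.32, then MRE11 and POLQ, the polymerase of an alternative joining route, at 7.45 and 6.72. POLQ had a log2 difference of -0.73, or -0.29 as the mean of its probe sets. In the Fanconi pathway and crosslink repair, 4 of 16 were lower, among them UBE2T, which delivers ubiquitin to FANCD2, at 1.82-fold, the crosslink nuclease gene DCLRE1A at 1.77-fold and FANCB, a subunit of the core complex, at 1.60-fold.

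Among other mismatch repair genes, 3 of 9 were lower, RFC3, RFC4 and RFC1, which load the sliding clamp that mismatch repair shares with replication, at 1.63-fold, 1.63-fold and 1.52-fold. Of 17 further checkpoint genes 4 were lower, including the phosphatase genes CDC25C and CDC25B, which release the checkpoint, and RAD17, the clamp loader of ATR signalling. Their log2 differences were -1.31, -0.96 and -0.81, and that of CDC25C was -0.11 on a probe set specific to 1 transcript. In base excision, nucleotide excision and bypass, 7 of 44 were lower, with NEIL3, a glycosylase, at 2.08-fold and HLTF, a factor of damage bypass, at 1.84-fold, and with ERCC5, the nuclease that cuts beside bulky damage, at 7.84 without and 6.85 with IL4. The list of other end joining genes had 0 of 14 past the level in either direction, and its median was -0.15. POLQ, counted here under homologous recombination, is not on that list.

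Genes of DNA replication and mitosis, which are likewise expressed in cycling cells, were also lower. Of 39 replication genes, 13 (33.3%) were at least 1.5-fold lower, with a median log2 difference of -0.42, close to the -0.49 of the repair genes. ORC1, which marks replication origins, was at 6.47 without and 5.31 with IL4, and the primase gene PRIM1 at 9.48 and 8.60. Of 48 mitosis genes, 39 (81.2%) were lower, with a median of -0.79, among them the kinetochore gene NDC80 at 2.87-fold and the spindle motor gene KIF11 at 2.69-fold. The part of cell cycle position in the values of the repair genes was not tested. Fewer cells in S phase and less mRNA per cell cannot be told apart in a bulk array. Whether the untreated and the treated cells already grew differently before the 30 min of IL4 was not tested either.

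Motifs were searched in the 250 bases before the start of the 29 measured genes with a RefSeq promoter, chosen after the values were seen. TTCCCGC or TTGGCGC was found on either strand in 10 of 29 (34.5%), against 7.95% of 27305 promoters and 12.2% of the 10418 promoters of other genes at or above the median level. The match was present in 4 of 12 genes that were at least 1.5-fold lower and in 6 of 17 that were not. Only exact matches to these letters in these 250 bases were counted, and a part of E2F in the differences was not tested. CCAAT was found in 14 of 29 (48.3%), in 33% of all promoters and in 34.7% of those of other genes at that level. TTTGAA was found in 3 (10.3%), against 13.6% and 8.68%. GGGCGG, whose letters can overlap a match to TTCCCGC as they do in RAD51AP1, was found in 23 (79.3%), against 42.3% and 65.9%. TTCNNNGAA, the general STAT motif, or the STAT6 motif with its longer spacer was found in 4 of 29 genes (13.8%), CHEK1, TOPBP1, FANCM and FANCC, against 11.6% and 8.95%.

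The 34 genes were also divided by the length of the gene. For the 17 genes that span more than 63.3 kb in the RefSeq table, the median log2 difference was -0.56 and 7 were at least 1.5-fold lower, and for the 17 shorter genes it was -0.23 with 6 lower. These counts are 41.2% and 35.3%, and among other genes at or above the median level 7.82% of 3453 longer and 5.07% of 9446 shorter ones were at least 1.5-fold lower, with medians of -0.044 and -0.023. Over the 34 genes the Spearman correlation of the difference with the span was -0.32, and over 12899 other genes at or above the median level it was -0.058. Both are descriptions of genes on the same 2 arrays.

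Signs of RNA quality and of other cells were measured beside these results. From untreated cells to IL4, the log2 gap from the 5′ to the 3′ controls changed by -0.30 for ACTB and -0.015 for GAPDH. All 12 markers of epithelium and lung adenocarcinoma were at or above the median level. Of these, 4 had a difference below 0, their median log2 difference was 0.15, and their linear values summed to 20975 without and 23991 with IL4. NKX2-1, the lung lineage factor, was at 7.88 and 6.91, whereas CDH1, the gene of E-cadherin, was at 10.18 and 10.92. Of the leukocyte, fibroblast and endothelial markers, 2 of 9, 3 of 10 and 2 of 8 were at or above the median level, and their sums of linear values were 209 and 217, 2049 and 2663, and 196 and 215 in untreated and IL4-treated cells. Most of the fibroblast sum came from the collagen gene COL1A1, at 10.82 and 11.23, without which it was 239 and 257. PTPRC, which defines leukocytes, was at 2.50 and 2.37, below the median. The part of these changes in the lower repair genes was not tested.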

How the data were processed

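RNA of H2228 cells, untreated and with IL4, was hybridized to Affymetrix Human Genome U133 Plus 2.0 arrays, 1 per condition. The deposited values are log2 expression values per probe set. RMA is the tool in the submitters' processing notes (no version), and GCOS is given for the raw data in the methods. A genome build is not given in the sources used here. Scanner files were not analysed here. Of 54675 probe sets, 41091 had 1 gene in the array annotation, 1801 several and 11721 no name there, and 62 were controls. Symbols were updated through gene numbers of the RefSeq table (GRCh38.p14).

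Differences are IL4 minus untreated, counted at 1.5-fold. The highest-mean probe set stood for a gene, and some genes stand on more than 1 list. Since each condition had 1 array, the number of arrays limits the precision and nothing was tested between conditions. The genes and lists were chosen with earlier results of these data known. Every one of the 38 genes could be named, and of other genes up to 3 per direction from each repair list and up to 2 from each comparison list, the largest differences of at least 1.5-fold at or above the median level. Alternatives took 2-fold as the level, kept genes from the median or from the 75th percentile upwards, or used the mean or median over probe sets, quantile normalization, loess correction (fraction 0.3), centring, or only probe sets specific to 1 transcript. Counting was tested on simulated data. Python 3.11.15, numpy 2.4.6, pandas 2.3.3, statsmodels 0.14.6 and matplotlib 3.10.9 were used.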

Additional observations from a re-analysis of the deposited data

How the results depend on the processing

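No replicate could be left out, and no paired analysis was possible because each condition has 1 array. In the alternatives that kept the 1.5-fold level, 0 repair genes were at least 1.5-fold higher and 23 or more were below 0, out of 28 to 34 with a value. Of the 13 lower genes, 9 stayed past 1.5-fold under each alternative at that level that gave them a value: BRCA1, RAD51C, RAD51AP1, RAD54B, EXO1, BLM, CHEK1, CHEK2 and TOPBP1. FANCM, PMS1, XRCC4 and ATM did not. The alternatives did not try these genes equally. RAD51AP1, RAD54B, EXO1, BLM, CHEK2 and TOPBP1 have 1 probe set each, which no choice among probe sets could change. BRCA1, RAD51C and CHEK2 had no value on probe sets specific to 1 transcript. The genes that did not stay have 4 to 6 probe sets each. Of 261 recomputed values of single repair genes, 251 moved by less than 0.25, the spread among probe sets, and no called one changed sign. Many of these values could not move. Keeping genes above a level leaves each difference as it was, and so does centring, because the median difference of all probe sets was 0. For the 15 genes with 1 probe set, the mean and median over probe sets also return the same value.

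Leaving out probe sets that can bind several transcripts left 29 repair genes, often on dimmer probe sets, with 7 lower and a median of -0.30. The Fanconi pathway then had -0.082, mismatch repair -0.13, the genes that peak in S phase -0.58, the remaining repair genes -0.24 and mitosis -0.85, 1 of the other repair genes was higher, and 2 genes of the p53 response were higher. FANCM then had -0.14, XRCC4 -0.27 and PMS1 0, each on another probe set. With the mean over probe sets the medians were -0.38 for the repair genes, -0.28 for the Fanconi pathway and -0.20 for mismatch repair. They were -0.47 for damage sensing and checkpoint, -0.27 for genes not listed as peaking in S phase and -0.20 for the other repair genes. In that setting 1 p53 response gene was lower. With the median over probe sets, mismatch repair had -0.36, and the p53 response 0.093 with 1 lower gene. After loess correction the medians were -0.43 for the repair genes and -0.38 for those not listed as peaking in S phase. They were -0.19 for the other repair genes, -0.36 for replication and -0.72 for mitosis. Above the 75th percentile, strand exchange had -0.78, end resection and helicases -0.43 and the p53 response 0.13. At 2-fold, 2 repair genes, 3 other repair genes, 1 replication gene, 12 mitosis genes and 0 p53 response genes were lower, and 3 of the last were higher. The counts at 2-fold are smaller because that level is higher. Above the 75th percentile each difference stayed as it was, and the medians moved because dimmer genes were left out. The cause of the other shifts was not tested. ATM had -0.21 as the mean over its probe sets.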

Other observations

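Genes that p53 induces after DNA damage lay on both sides of the 1.5-fold level. Of the 18 measured genes, 6 were at least 1.5-fold higher and 2 lower, and on probe sets specific to 1 transcript 2 of 12 were higher and 2 lower. Their median log2 difference was 0.020. CDKN1A, the gene of p21, a brake on CDK activity, was at 8.20 in untreated cells and 9.67 with IL4, 2.78-fold higher. GADD45A, a stress-response gene, was at 9.45 and 10.86, 2.67-fold higher. The lower genes were RRM2B, a ribonucleotide reductase subunit that supplies nucleotides for repair, at 7.45 and 6.63, and POLH, a polymerase of damage bypass, at 7.08 and 6.47. The log2 difference of POLH was -0.61 and moved to -0.25 with the median over its probe sets.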
